A study of Mus musculus with 7 samples.

Results

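The MS4A4, MS4A6 and MS4A7 genes are a tandem family of membrane proteins expressed mainly in macrophages, monocytes and T cells. They were read in ventricles of mice with immune checkpoint inhibitor (ICI) myocarditis and of control mice. The 7 genes measured were all higher in each of the 3 ICI-myocarditis hearts than in any of the 4 control hearts. They were chosen with this contrast known, and 2634 of 15258 genes tested, or 17.3%, were separated in the same way. On the log2 scale the difference ranged from 1.45 for Ms4a4d to 4.34 for Ms4a4b, with a median of 3.06. The genes did not differ by the same factor. Ms4a4d held the largest part of the family's per-length signal in 3 of 4 controls, and Ms4a6c in control 2 and in 3 of 3 ICI-myocarditis hearts. Ms4a7 and Ms4a6d made up a larger part of it in all 3 ICI-myocarditis hearts than in any control.

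The family was defined by 8 gene names, Ms4a4a, Ms4a4b, Ms4a4c, Ms4a4d, Ms4a6b, Ms4a6c, Ms4a6d and Ms4a7, and 7 of them were found among the 23420 genes of the table. Ms4a4a is not analysed here. The genes were chosen from results of this same contrast, so their levels and fold changes are given as a description, without a test. MS4A proteins span the membrane several times and resemble CD20, the product of Ms4a1. They are thought to act as adaptors that associate with other receptors and adjust their traffic and signalling. The MS4A4, MS4A6 and MS4A7 genes are best known from myeloid cells, in particular macrophages and microglia, where human MS4A4A binds the fungal receptor dectin-1 and variation at the locus is linked to soluble TREM2. In mice Ms4a4b and Ms4a4c are also expressed in T cells, where MS4A4B associates with the costimulatory receptor GITR.

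Total RNA was sequenced from flash-frozen cardiac ventricle, although the tissue label reads whole heart. The animals were untreated and 3 to 6 weeks old. Both groups were labelled Pdcd1-/-, Pdcd1 being the gene of the T cell receptor PD-1. The 4 controls were Ctla4+/+ and the 3 ICI-myocarditis animals were Ctla4+/-, so the contrast is loss of 1 copy of Ctla4 on a background labelled Pdcd1-/-, by genotype rather than by treatment with an inhibitor. Reads assigned to genes numbered 20931730 to 32567278 per control library and 27948525 to 39037176 per ICI-myocarditis library. Values are the authors' normalized read counts, that is, each library's gene counts after division by its own size factor. Cardiomyocyte genes were the check of the tissue, and the summed count of 6 of them was 1114314 to 2119839 in controls and 678614 to 1206685 in ICI-myocarditis. None of the 6 passed the test (limma), with adjusted p = 0.173 for Myh6 and 0.490 for Actc1. Their median log2 fold change was nevertheless -0.86, and Myh6 was lower in every ICI-myocarditis library than in any control. Ctla4 was counted at 29.2, 113, 69.2 and 41.3 in controls 1 to 4 and at 282, 251 and 373 in ICI-myocarditis 1 to 3, which does not report the number of gene copies. Pdcd1 was counted at 9.07, 244, 3.35 and 2.50 in controls and at 1481, 1096 and 1340 in ICI-myocarditis despite the Pdcd1-/- label. A count summed over all exons says nothing of a deleted exon, so it does not check the deletion. Nothing in the labels ties the libraries to litters or to separate preparations, and p-values measure the spread between these libraries.

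The 7 genes lie together on chromosome 19 (GRCm38, GENCODE M21). Ms4a7 spans 11321039 to 11336146 on the minus strand. It is followed on the plus strand by Ms4a4c (11404770 to 11427246), Ms4a4b (11443553 to 11467055), Ms4a6c (11469366 to 11482192), Ms4a6b (11516512 to 11531256) and Ms4a4d (11536801 to 11558467). Ms4a6d spans 11586604 to 11604849 on the minus strand. Within the MS4A4 and MS4A6 branches the copies are alike. Coding sequences of Ms4a4b and Ms4a4c were 91.7% identical over 678 aligned bases, those of Ms4a4c and Ms4a4d 87.9%, and those of Ms4a6b and Ms4a6c 86.4%. Ms4a7 was 65.7 to 68.9% identical to the other 6 genes, and the MS4A4 genes were 59.6 to 63.9% identical to the MS4A6 genes. The longest exact stretch shared by any pair bears on the counting, because a read that lies inside it fits both genes. It is the 127 bases at coding positions 321 to 447 of both Ms4a4b and Ms4a4c, counted from the start codon.

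Ms4a4b and Ms4a4c shared coding stretch: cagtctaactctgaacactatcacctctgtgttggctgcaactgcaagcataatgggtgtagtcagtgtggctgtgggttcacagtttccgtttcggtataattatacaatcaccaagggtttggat

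Such stretches were short against the genes. Of all 75-base windows in their transcripts, 1.18% for Ms4a4b, 3.78% for Ms4a4c, 2.88% for Ms4a6c, 0.63% for Ms4a6b and 0.41% for Ms4a6d also occurred in a transcript of another gene, and 0% for Ms4a4d and Ms4a7. The program that counted the reads is not given in the sources used here. The windows of Ms4a4c were shared with Ms4a4b, those of Ms4a4b with Ms4a4c and Ms4a2, those of Ms4a6b with Ms4a6c and Ms4a6d, those of Ms4a6d with Ms4a6b, and those of Ms4a6c mostly with Prdm11 and otherwise with Ms4a6b. Some counts of these genes are therefore uncertain, and how many was not measured. The windows are exact matches pooled over all annotated transcripts of a gene, so their percent is not the percent of counts affected.

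Sequence upstream of the starts was taken from RefSeq (GRCm38.p6) for 6 of the 7 genes, and Ms4a6d is named only. Distances are counted from the RefSeq start. For Ms4a4c and Ms4a6b the bases shown lie inside the GENCODE span given above, after its first base. The 250 bases before the start are shown for the pair Ms4a4b and Ms4a4c, for the pair Ms4a6b and Ms4a6c, and for Ms4a7, whose group difference had the widest gap. Capitals mark matches to the motifs searched on both strands, namely GAGGAAGT and its core GAGGAA (PU.1 and other ETS factors), GAAANNGAA (the core of the interferon-stimulated response element), TTCNNNGAA (the interferon-gamma activated site), TGCTGA (MAF recognition core) and TGTGGT (RUNX). GAGGAAGT contains GAGGAA, so these matches overlap. Positions are chr19:11443308-11443557 for Ms4a4b, chr19:11407411-11407660 for Ms4a4c, chr19:11518309-11518558 for Ms4a6b and chr19:11469118-11469367 for Ms4a6c, all on the plus strand, and chr19:11336147-11336396 on the minus strand for Ms4a7.

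Ms4a4b upstream: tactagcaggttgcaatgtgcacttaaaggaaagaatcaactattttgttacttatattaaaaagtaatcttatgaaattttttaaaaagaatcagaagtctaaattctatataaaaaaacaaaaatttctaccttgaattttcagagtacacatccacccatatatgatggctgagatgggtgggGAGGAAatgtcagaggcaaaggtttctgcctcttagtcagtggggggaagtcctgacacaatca
Ms4a4c upstream: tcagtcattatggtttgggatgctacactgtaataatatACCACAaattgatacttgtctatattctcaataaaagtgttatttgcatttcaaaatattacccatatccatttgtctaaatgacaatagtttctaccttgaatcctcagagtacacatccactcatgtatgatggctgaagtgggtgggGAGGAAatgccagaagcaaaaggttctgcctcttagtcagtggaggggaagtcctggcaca
Ms4a6b upstream: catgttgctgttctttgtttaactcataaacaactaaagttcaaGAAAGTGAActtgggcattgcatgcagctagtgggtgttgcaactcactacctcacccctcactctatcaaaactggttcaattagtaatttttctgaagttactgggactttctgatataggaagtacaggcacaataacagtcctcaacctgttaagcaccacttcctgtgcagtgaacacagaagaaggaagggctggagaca
Ms4a6c upstream: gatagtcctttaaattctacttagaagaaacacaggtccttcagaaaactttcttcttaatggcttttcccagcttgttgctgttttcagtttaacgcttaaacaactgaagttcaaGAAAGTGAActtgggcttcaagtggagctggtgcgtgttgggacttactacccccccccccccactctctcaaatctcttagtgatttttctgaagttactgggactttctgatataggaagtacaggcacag
Ms4a7 upstream: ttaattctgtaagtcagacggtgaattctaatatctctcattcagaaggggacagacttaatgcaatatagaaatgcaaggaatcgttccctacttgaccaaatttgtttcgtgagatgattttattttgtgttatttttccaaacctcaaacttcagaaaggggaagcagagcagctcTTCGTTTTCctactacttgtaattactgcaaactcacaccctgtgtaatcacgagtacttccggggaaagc

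The upstream sequences of Ms4a4b and Ms4a4c were 78.9% identical over 232 aligned bases, and both hold GAGGAA, at 64 and 61 bases before the start. Those of Ms4a6b and Ms4a6c were 85.1% identical over 175 aligned bases and hold the same GAAAGTGAA, at 206 and 133 bases before the start. In Ms4a7 the response element core lies on the opposite strand, 71 bases before the start, and reads TTCGTTTTC in the direction printed. Over windows of 250 bases before to 50 bases after the start, GAAANNGAA was present in 4 of the 7 windows of these genes, of which 2 belong to alternative starts of Ms4a7, and in 7.9% of 19848 windows of all genes. GAGGAA was present in 3 of 7 and in 27.4% of all windows, and TGTGGT in 1 of 7, that of Ms4a4c, and in 14.3% of all windows. GAGGAAGT (3.1% of all windows), TTCNNNGAA (7.9%) and TGCTGA (18.0%) had no match in the 7. The Ms4a4d window held none of the motifs searched. A match is a description of letters and not a binding site.

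Among the 15258 genes tested over the whole table, with limma and Benjamini-Hochberg adjustment at 0.05, 2397 genes or 15.7% differed, 1787 or 11.7% were higher in ICI-myocarditis, and 610 were lower. Every ICI-myocarditis library lay above every control library for 2634 genes, or 17.3%. All 7 MS4A genes passed the filter, were past the threshold upwards and had groups that did not overlap, a count from which nothing is read because they were selected on this contrast. Each fold change sets ICI-myocarditis against control as a difference of log2(normalized count + 1). The median over all genes tested was -0.02, with the middle 90% between -1.07 and 2.39. The count over the whole table fell to 1508 without control 1, to 1298 without control 3, to 1396 without ICI-myocarditis 2 and to 986 without ICI-myocarditis 3. In bulk tissue, fewer cells of a type and less RNA per cell cannot be told apart, and this holds for each level below.

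**Figure D1:**
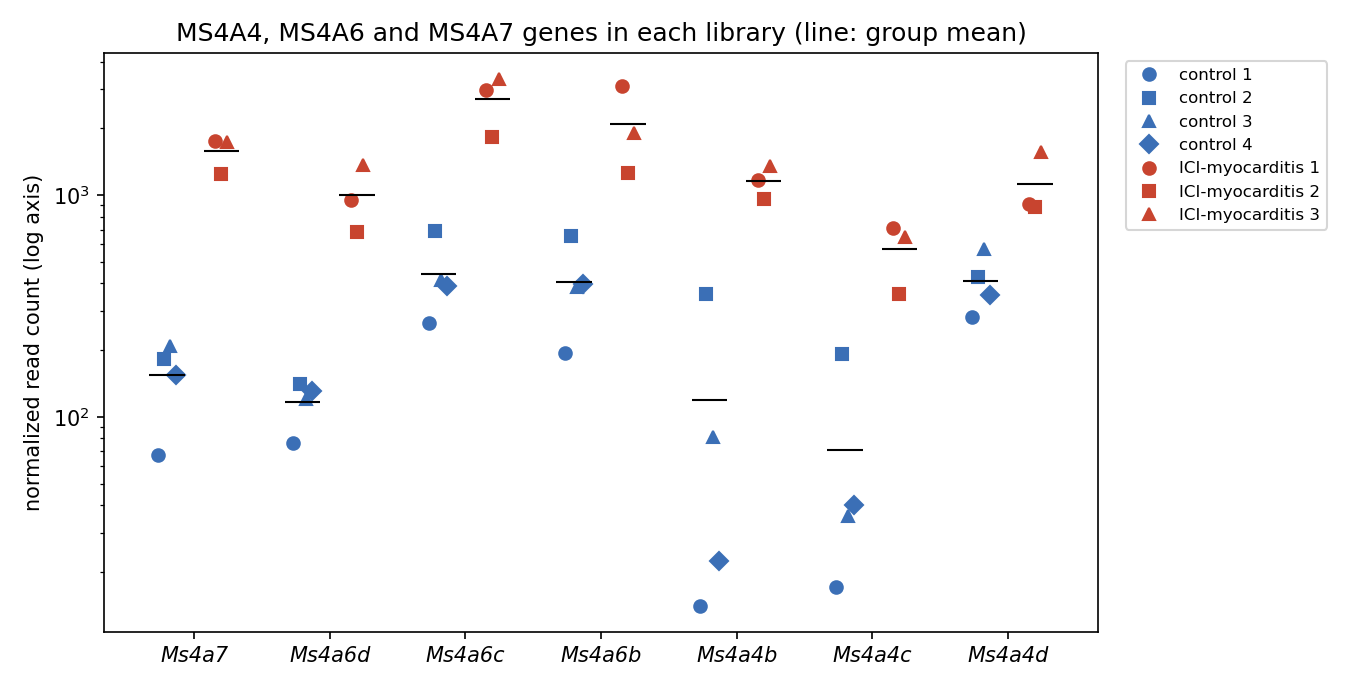
Normalized read count (log axis) of each MS4A gene in each of the 4 control (blue) and 3 ICI-myocarditis (red) libraries; marker shape gives the replicate number and the line the group mean. The groups do not overlap for any of the 7 genes, control 1 is the lowest control throughout, and controls spread most for Ms4a4b (14.1 to 360) and Ms4a4c (17.1 to 192).

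Among the MS4A4 genes, Ms4a4b, the T cell gene, had the largest fold change and the least even controls. Controls 1 to 4 held 14.1, 360, 81.5 and 22.5 normalized counts, and ICI-myocarditis 1 to 3 held 1169, 965 and 1355. Control 2 stood 16.0-fold above the median of the other controls, yet the lowest ICI-myocarditis library was still 2.68-fold above it. The means were 120 ± 163 (SD, n = 4) and 1163 ± 195 (SD, n = 3), and the log2 fold change was 4.34 (standard error, SE, 0.920). Because a log scale gives weight to low controls, the size of this change depended on the method and the libraries. The ratio of the means was 9.72-fold, against 20.2-fold on the log scale. The log2 fold change was 5.22 without control 2, 3.70 without control 1, 3.24 with edgeR and 3.28 in the authors' deposited table.

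Ms4a4c, its nearest copy, is known as an interferon-responsive gene of lymphocytes and monocytes. It was counted at 17.1, 192, 35.7 and 40.0 in controls and at 708, 358 and 646 in ICI-myocarditis. Control 2 was again the highest control, here 5.39-fold above the median of the others, and ICI-myocarditis 2 was the lowest of its group. The means were 71.3 ± 81.3 (SD, n = 4) and 571 ± 187 (SD, n = 3), with a log2 fold change of 3.51 (SE 0.690) that became 4.19 without control 2.

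Ms4a4d had the smallest fold change of the 7 genes, and its controls were close together. Its values were 282, 428, 571 and 355 in controls and 913, 883 and 1563 in ICI-myocarditis. Its highest control was control 3 rather than control 2, and control 2 was 1.20-fold above the median of the others. The lowest ICI-myocarditis library was 1.55-fold above the highest control, the narrowest gap of the 7 genes. Means of 409 ± 123 (SD, n = 4) and 1120 ± 384 (SD, n = 3) gave a log2 fold change of 1.45 (SE 0.295), which lies inside the middle 90% of all genes.

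The MS4A6 genes, which are expressed in monocytes and macrophages and in part in T cells, had fold changes between those of Ms4a4d and Ms4a7. For Ms4a6b the normalized counts were 194, 654, 384 and 397 in controls and 3102, 1264 and 1916 in ICI-myocarditis. ICI-myocarditis 1 stood highest, and Ms4a6b had the widest range within that group, 2.45-fold from lowest to highest. The means were 407 ± 189 (SD, n = 4) and 2094 ± 932 (SD, n = 3), a log2 fold change of 2.39 (SE 0.419).

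Ms4a6c had the highest level per kilobase of the 7 genes in ICI-myocarditis. It stood at 265, 691, 415 and 388 in controls and at 2970, 1823 and 3332 in ICI-myocarditis, and its lowest ICI-myocarditis library was 2.64-fold above control 2, its highest control. The means were 440 ± 180 (SD, n = 4) and 2709 ± 788 (SD, n = 3), a log2 fold change of 2.66 (SE 0.334).

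Ms4a6d, whose product is reported to pair with the complement receptor VSIG4 on macrophages, had the tightest controls on the log2 scale (SD 0.391). The values were 76.6, 141, 121 and 131 in controls and 949, 681 and 1365 in ICI-myocarditis. Control 2 was 1.17-fold above the median of the other controls, far less than for Ms4a4b, and the lowest ICI-myocarditis library was 4.84-fold above the highest control. Means of 117 ± 28.3 (SD, n = 4) and 999 ± 345 (SD, n = 3) gave a log2 fold change of 3.06 (SE 0.305).

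Ms4a7, a gene of mature macrophages, had the widest gap between the groups. Counts of 67.6, 183, 210 and 155 in controls stood against 1760, 1246 and 1741 in ICI-myocarditis. The lowest ICI-myocarditis library was 5.94-fold above control 3, the highest control. The means were 154 ± 61.7 (SD, n = 4) and 1582 ± 291 (SD, n = 3), and the log2 fold change was 3.45 (SE 0.372).

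Across the family the same libraries stood at the ends. Control 1 was the lowest control for 7 of 7 genes, and control 2 was the highest for 5 of 7, with control 3 highest for Ms4a4d and Ms4a7. ICI-myocarditis 2 was the lowest of its group for 7 of 7, and the highest was ICI-myocarditis 3 for 4 genes and ICI-myocarditis 1 for the other 3. When each gene's log2 values were set relative to its control mean, the profiles over the 7 libraries were nearest between Ms4a6b and Ms4a6c, with a root mean square difference of 0.324, then Ms4a6c and Ms4a6d (0.345) and Ms4a6d and Ms4a7 (0.404). Ms4a4b and Ms4a4d were farthest apart (2.237). Closeness in sequence was thus not matched throughout, as Ms4a4b and Ms4a4c, the pair most alike in coding sequence, differed by 0.838.

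**Figure D2:**
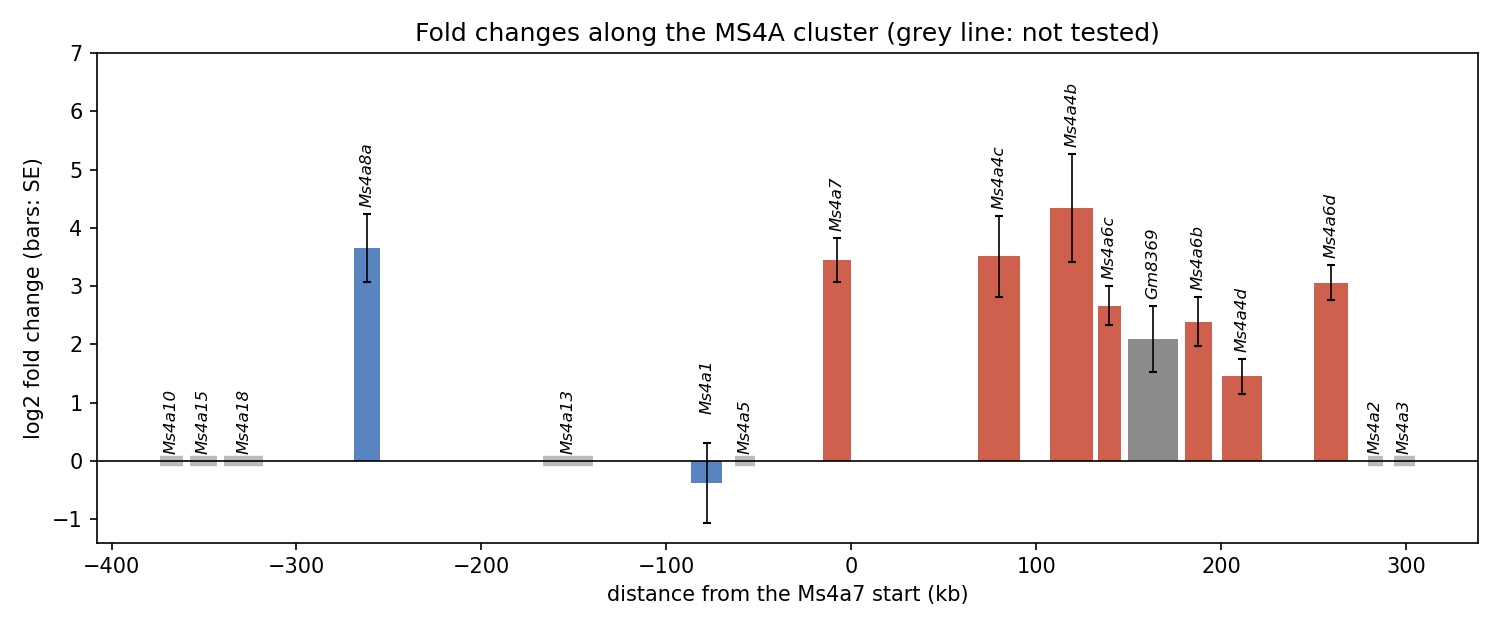
Log2 fold change (ICI-myocarditis over control, bars SE) of each gene of the MS4A cluster, drawn at its distance in kb from the start of Ms4a7, with bar width equal to gene length and flat grey marks for genes too low to test. The 7 genes described (red) and Ms4a8a (blue) lie between 1.45 and 4.34, Ms4a1 is at -0.38, and the genes at the outer ends were not tested. The grey bar is the predicted gene Gm8369 (2.09), which was tested.

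Levels were compared between genes per kilobase of merged exons. The annotated length ran from 1513 bases for Ms4a4d to 8780 for Ms4a4b, so the order depends on it. Before division by length, the control means were 440 for Ms4a6c, 409 for Ms4a4d and 407 for Ms4a6b. In ICI-myocarditis Ms4a4b, at 1163, was above Ms4a4c, at 571. In controls, Ms4a4d stood first at 270 ± 81.3 normalized counts per kb (SD, n = 4), followed by Ms4a6c at 215 ± 87.6, Ms4a6b at 90.8 ± 42.1, Ms4a6d at 67.6 ± 16.3, Ms4a4c at 40.7 ± 46.5, Ms4a7 at 34.5 ± 13.9 and Ms4a4b at 13.6 ± 18.6. Only the step from Ms4a6c to Ms4a6b held in 4 of 4 controls. Ms4a4c was above Ms4a7 in 1 of 4, control 2, and the remaining steps held in 3 of 4. In ICI-myocarditis the order began with Ms4a6c at 1320 ± 384 normalized counts per kb (SD, n = 3), then Ms4a4d at 740 ± 254, Ms4a6d at 576 ± 199, Ms4a6b at 467 ± 208, Ms4a7 at 355 ± 65.3, Ms4a4c at 326 ± 107 and Ms4a4b at 132 ± 22.2. Here the steps from Ms4a6d to Ms4a6b and from Ms4a7 to Ms4a4c held in 2 of 3 libraries and the other steps in 3 of 3. Summed over the 7 genes, the level was 430, 1039, 812 and 648 normalized counts per kb in controls 1 to 4 and 4224, 2742 and 4787 in ICI-myocarditis 1 to 3.

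The make-up of that sum shifted away from Ms4a4d. Its share was 43.4%, 27.2%, 46.5% and 36.2% in controls and 14.3%, 21.3% and 21.6% in ICI-myocarditis, a mean of 38.3% ± 8.55 (SD, n = 4) against 19.1% ± 4.14 (SD, n = 3), with no overlap. Ms4a7 moved the other way, from 4.66% ± 1.10 to 9.24% ± 1.03, and Ms4a6d from 9.58% ± 1.74 to 14.6% ± 1.76, both without overlap. Ms4a6c took 29.2% ± 3.12 and 33.6% ± 0.992, and Ms4a6b 12.1% ± 2.06 and 11.9% ± 3.97. The share of Ms4a4b was 1.47% ± 1.69 in controls and 3.46% ± 0.474 in ICI-myocarditis, and that of Ms4a4c 4.72% ± 3.94 and 8.24% ± 1.16, both overlapping through control 2 alone. Without control 2 the control shares were 0.638% for Ms4a4b and 2.77% for Ms4a4c. The shares of a library add up to the whole, so a lower share of 1 gene raises those of the others. Per kilobase of the longest transcript in place of merged exons, the share of Ms4a4b was 2.47% in controls and 5.67% in ICI-myocarditis. That of Ms4a4d was 35.4% and 16.9%.

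**Figure D3:**
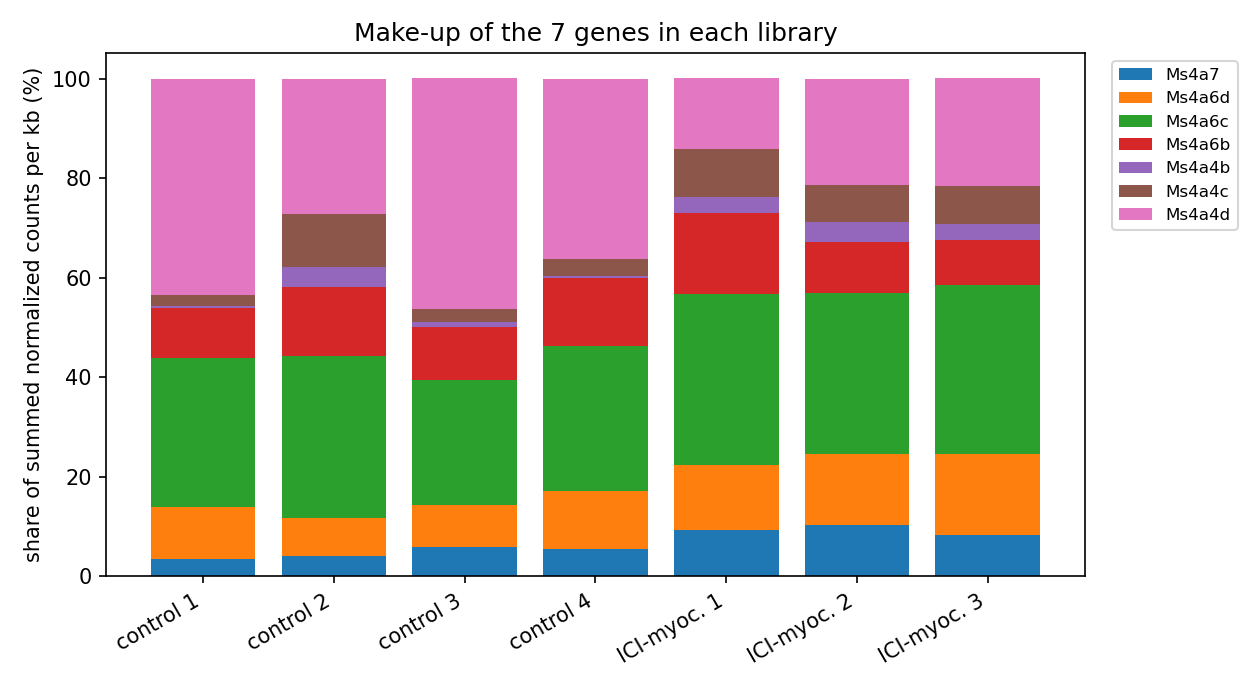
Share (percent) of each of the 7 genes in the family's summed normalized counts per kb, 1 bar per library. Ms4a4d takes 27.2 to 46.5% in the controls and 14.3 to 21.6% in ICI-myocarditis, while Ms4a7 takes 3.53 to 5.81% and 8.17 to 10.2%.

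Markers of the cells that express these genes were read in the same libraries. The summed count of 10 pan-macrophage genes was 9682 to 14636 in controls and 33145 to 49781 in ICI-myocarditis. Of the 10, 8 rose and 0 fell (limma), with a median log2 fold change of 2.14. Its leading genes were Lyz2, the macrophage lysozyme (1.40, SE 0.326, adjusted p = 0.0202), and Csf1r, the receptor for the macrophage growth factor (1.33, SE 0.300, adjusted p = 0.0178). Of 6 monocyte genes tested, 5 rose, with a median of 3.12, among them Plac8 (5.16, SE 1.01, adjusted p = 0.0101) and Vcan (1.55, SE 0.213, adjusted p = 0.00373). Among 7 genes of resident cardiac macrophages, 1 rose and 2 fell, with a median of -0.45. Mrc1, the mannose receptor, was the one that rose (0.79, SE 0.221, adjusted p = 0.0395), and Gas6, a ligand of the MERTK receptor family, was at -0.08 (SE 0.263, adjusted p = 0.879). The 2 that fell, named after their values were seen, were Cd163, the haemoglobin scavenger receptor (-0.92, SE 0.167, adjusted p = 0.00795), and Cbr2 (-1.28, SE 0.356, adjusted p = 0.0402).

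All 12 T cell genes rose, and their median on the log2 scale was 4.49. Cd8a, the coreceptor of cytotoxic T cells, was counted at 35.3, 572, 42.4 and 22.5 in controls and at 2569, 2515 and 3888 in ICI-myocarditis (5.43, SE 0.933, adjusted p = 0.00661), and Thy1 changed by 1.95 (SE 0.293, adjusted p = 0.00426). The summed T cell count was 2722 in control 2, 567 to 967 in the other controls, and 10560 to 16539 in ICI-myocarditis. Control 2, the library with the highest Ms4a4b and Ms4a4c among the controls, was thus also highest in the T cell sum, 3.76-fold above the median of the other controls. For Cd8a alone control 2 was 16.2-fold above the median of the other controls, and for Thy1 1.57-fold. It was 11.2-fold above them for the summed NK cell genes, which were 12.5 to 204 in controls and 268 to 384 in ICI-myocarditis, and 1.04-fold for pan-macrophage genes. Of 4 NK cell genes tested, 2 rose, with a median of 2.98, namely Klre1 (4.15, SE 1.14, adjusted p = 0.0386) and Eomes (3.85, SE 0.931, adjusted p = 0.0237). Eomes was at 4.03, 93.8, 5.58 and 5.0 in controls, and Klre1 at 0 to 29.6. Both reached the filter only with the ICI-myocarditis libraries, so their calls carry no weight of their own. Ncr1 was at 1.05 (SE 0.755, adjusted p = 0.395) and Klra8 was at 0 in every library. Without control 2 the counts that rose were 12 T cell, 8 pan-macrophage, 6 monocyte and 3 NK cell genes. How far cell numbers account for the MS4A differences was not tested.

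Set against the pan-macrophage sum, some of the 7 genes overlapped between the groups and others did not. Ms4a7 came to 0.698%, 1.25%, 1.46% and 1.10% of that sum in controls 1 to 4 and to 4.46%, 3.76% and 3.50% in ICI-myocarditis 1 to 3. Ms4a6d came to 0.791%, 0.961%, 0.841% and 0.932% and to 2.41%, 2.06% and 2.74%, and Ms4a6c to 2.74%, 4.72%, 2.90% and 2.75% and to 7.52%, 5.50% and 6.69%. For these 3 genes the groups did not overlap. Lyz2 and Csf1r made up most of that sum, and their log2 fold changes of 1.40 and 1.33 were the smallest among the 8 pan-macrophage genes that rose. Other genes of the list that rose were named after their values were seen. Fcgr1 (3.46), Aif1 (3.08) and Itgam (2.59) had fold changes near those of the 3. Cd68 (2.36), Emr1 (2.28) and Cx3cr1 (1.99) were lower, and the median of the list, 2.14, was below the 2.66 of Ms4a6c. The comparison with the sum is thus mostly one with 2 abundant genes, made with genes selected on the same contrast. Ms4a6c also did not overlap as a percent of the monocyte sum, at 15.3 to 22.1% in controls and 24.0 to 32.2% in ICI-myocarditis. Vcan was the largest part of that sum in every control and had the smallest fold change of the monocyte genes that rose, 1.55, whereas the median of the list, 3.12, was above the 2.66 of Ms4a6c. Ms4a4d, by contrast, was 2.52 to 3.98% of the pan-macrophage sum in controls and 2.31 to 3.14% in ICI-myocarditis, which overlap. Ms4a6b overlapped too, at 2.00 to 4.47% and 3.81 to 7.86%.

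Ms4a4b and Ms4a4c, set against the T cell sum, overlapped between the groups. Ms4a4b was 1.46%, 13.2%, 11.3% and 3.97% of the summed T cell count in controls and 10.8%, 9.13% and 8.19% in ICI-myocarditis, so all 3 ICI-myocarditis values lay within the range of the controls. For Ms4a4c the shares were 1.77%, 7.07%, 4.94% and 7.06% and 6.55%, 3.39% and 3.90%, again within the control range. Thy1 was the largest part of the T cell sum in every control, at 666, 576, 366 and 360 in controls 1 to 4. It had the smallest fold change of the 12 T cell genes, 1.95 against a median of 4.49. The percents of controls therefore depend on Thy1 more than those of ICI-myocarditis do. Against the monocyte sum Ms4a4c was 0.988 to 6.16% in controls and 4.70 to 7.67% in ICI-myocarditis, overlapping through control 2.

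**Figure D4:**
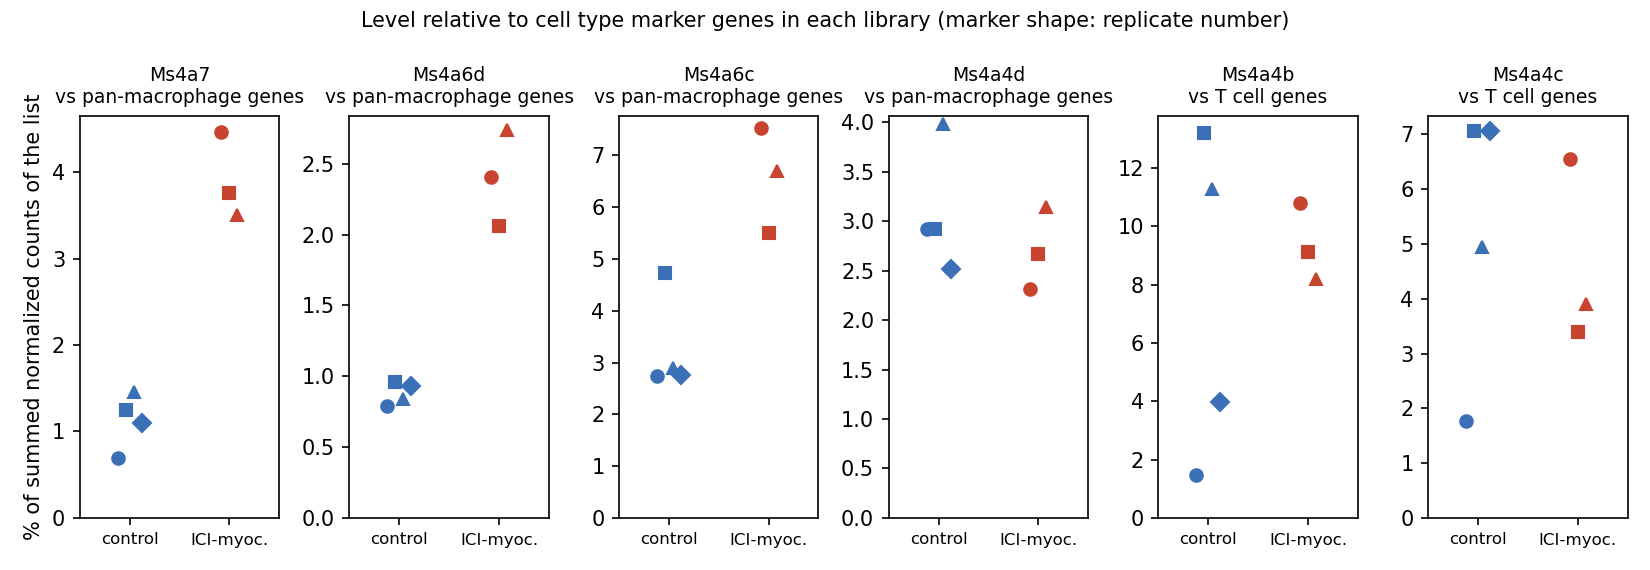
Normalized count of each gene as percent of the summed counts of its marker list (10 pan-macrophage or 12 T cell genes), 1 point per library, controls blue and ICI-myocarditis red. Ms4a7, Ms4a6d and Ms4a6c lie above every control in each ICI-myocarditis library, while Ms4a4d, Ms4a4b and Ms4a4c overlap.

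Genes of the same family outside the 7 were tested with the whole table. Their list, like the partner and marker lists, was drawn up with earlier results of these data known. The calls are therefore no independent support. Of 15 further MS4A and TMEM176 names, 13 were found, 4 reached the filter and 3 rose, of which Ms4a8a reached the filter only through the ICI-myocarditis libraries, so that its call carries no weight of its own. Ms4a8a, a gene reported in alternatively activated macrophages, was counted at 5.04, 2.47, 2.23 and 1.25 in controls and at 30.7, 28.3 and 90.9 in ICI-myocarditis. Its log2 difference was 3.65 (SE 0.580, limma adjusted p = 0.00503), and 2.67 with a pseudocount of 5. These are low counts, and 3 of 3 ICI-myocarditis libraries lay above every control. Tmem176a and Tmem176b, related genes of myeloid cells on chromosome 6, also rose. Tmem176a was higher by 1.20 (SE 0.238, limma adjusted p = 0.0108), with 288 to 470 normalized counts in controls and 748 to 1159 in ICI-myocarditis. Tmem176b was higher by 1.17 (SE 0.212, limma adjusted p = 0.00795), with 846 to 1255 and 2001 to 2942. They overlap on opposite strands, and whether counting used strand is not given in the sources used here, so their reads may be mixed.

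Ms4a1, which encodes the B cell antigen CD20, did not pass the test. It was counted at 3.02, 7.40, 27.9 and 16.3 in controls and at 6.14, 10.9 and 6.88 in ICI-myocarditis, a log2 difference of -0.38 (SE 0.689, limma adjusted p = 0.761), with values of one group inside the range of the other. Among 6 B cell genes tested, 3 rose, with a median of 0.95. Fcrla was below 10 in every control and reached the filter only through ICI-myocarditis. The other two were Cd79b (1.56, SE 0.406, limma adjusted p = 0.0310) and Cd22 (3.83, SE 0.764, limma adjusted p = 0.0108). Ms4a2, the beta chain of the high-affinity IgE receptor of mast cells, was at 2.02, 1.23, 1.12 and 1.25 in controls and at 0 in all 3 ICI-myocarditis libraries, too low to test. Of 5 mast cell genes tested, 0 rose and 2 fell, with a median of -0.84. The 2 that fell, named after their values were seen, were Cpa3 (-1.61, SE 0.399, limma adjusted p = 0.0257) and Mcpt4 (-1.60, SE 0.468, limma adjusted p = 0.0476), both mast cell proteases. Kit and Cma1, the 2 most abundant of them, did not pass the test, at -0.15 (SE 0.407, limma adjusted p = 0.847) and -0.84 (SE 0.441, limma adjusted p = 0.239). Ms4a3, Ms4a5, Ms4a10 and Ms4a13 had 0 reads in every library, and Ms4a15, Ms4a18, Ms4a19 and Ms4a20, the last 2 listed as 1700025F22Rik and 1700017D01Rik, were at no more than 6.88. Gm8369, a predicted gene between Ms4a6c and Ms4a6b at 11485938 to 11512577, was looked at after its values had been seen. It was counted at 15.1, 59.2, 30.1 and 10 in controls and at 77.8, 100 and 132 in ICI-myocarditis (2.09, SE 0.567, limma adjusted p = 0.0369). Its call was lost in 8 of 16 alternatives, with adjusted p up to 0.150 without ICI-myocarditis 3, and also without control 1, 3 or 4, without ICI-myocarditis 1 or 2, with edgeR and with scaling by library total.

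**Figure D5:**
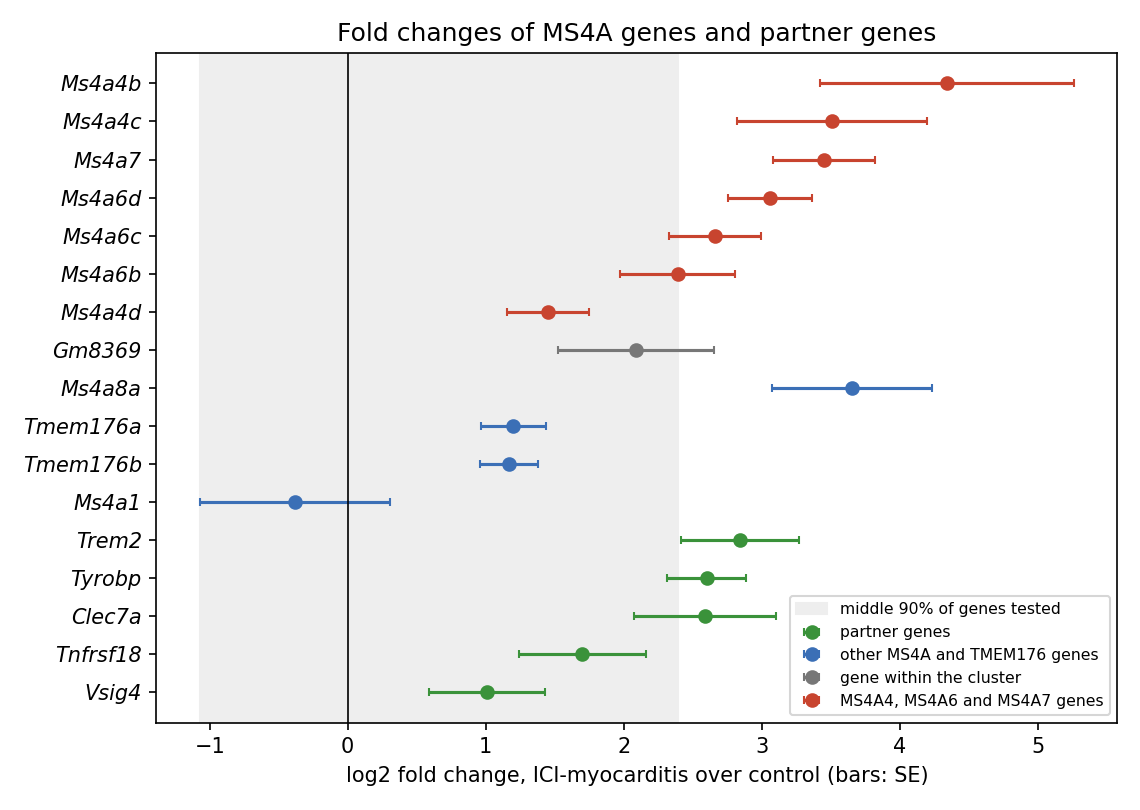
Log2 fold change (ICI-myocarditis over control, bars SE) of the 7 genes (red), the predicted gene within the cluster (grey), other MS4A and TMEM176 genes (blue) and partner genes (green); the grey band is the middle 90% of all genes tested, -1.07 to 2.39. Ms4a4d (1.45) lies within the band, Ms4a6b (2.39) at its edge and the other red points above it.

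Receptors and adaptors that MS4A proteins are reported to work with were read next. Of the 5 partner genes 4 rose, and the median of the 5 on the log2 scale was 2.59. Clec7a, encoding dectin-1, was counted at 63.5, 242, 394 and 198 in controls and at 995, 1144 and 1246 in ICI-myocarditis (2.59, SE 0.513, limma adjusted p = 0.0107). Trem2, a lipid-sensing receptor of macrophages, stood at 33.3, 90.1, 73.7 and 88.8 against 440, 325 and 789 (2.84, SE 0.426, limma adjusted p = 0.00426). Tyrobp, the signalling adaptor of TREM2, stood at 248, 464, 391 and 460 against 2853, 1619 and 2632 (2.60, SE 0.288, limma adjusted p = 0.00251). For Clec7a, Trem2 and Tyrobp every ICI-myocarditis library was above every control.

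Tnfrsf18, which encodes GITR, was at 72.6, 205, 123 and 45.0 in controls and at 314, 286 and 338 in ICI-myocarditis (1.70, SE 0.459, limma adjusted p = 0.0359). Control 2 was again its highest control. Its call was lost in 8 of 16 alternatives, with adjusted p up to 0.124 without ICI-myocarditis 3, and among the others without control 1 or 3, without ICI-myocarditis 1 or 2, with edgeR and with scaling by library total. Vsig4, the macrophage complement receptor reported to pair with MS4A6D, was low and did not pass the test, at 11.1, 13.6, 14.5 and 20 in controls and 23.5, 24.6 and 47.4 in ICI-myocarditis (1.01, SE 0.422, limma adjusted p = 0.142). Its lowest ICI-myocarditis library was nevertheless above its highest control.

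For each gene, the 2 genes whose log2 profile over the 7 libraries was nearest, relative to the control mean, were taken among 14045 genes. The measure is the root mean square difference, and it describes likeness over these libraries, which share depth and group. Nearest to Ms4a4b were Cd96 (0.308), a receptor of T and NK cells, and Klri2 (0.319), a lectin-like receptor of the NK gene complex, both low in controls other than control 2. Cd96 was counted at 2.02, 51.8, 12.3 and 1.25 in controls and at 169, 165 and 214 in ICI-myocarditis. Ms4a4c had P2ry10 (0.202), a lymphocyte receptor for lysophospholipids, and Fam169b (0.258). Cd96, Klri2 and Fam169b reached the filter only with the ICI-myocarditis libraries, so their likeness partly restates low controls. Ms4a4d was nearest to Slc14a1 (0.184), the urea transporter, and AA414768 (0.194).

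The closest likeness of the 14 was that of Ms4a6b with Gmfg (0.112), a regulator of actin in blood cells, which was counted at 67.6, 257, 157 and 125 in controls and at 1117, 474 and 717 in ICI-myocarditis. Susd3 (0.188) came next. Like Ms4a6b, both were highest in ICI-myocarditis 1. Ms4a6c had Fgl2 (0.191), a secreted immunoregulatory protein, and Ifi204 (0.199), an interferon-inducible DNA sensor. Ms4a6d had Trem2 (0.249), also a partner gene, and Ly86 (0.256), a partner of the radioprotective antigen RP105 on myeloid and B cells. Ms4a7 had Tlr13 (0.286), an endosomal receptor for bacterial ribosomal RNA, and Lta (0.351), a lymphocyte cytokine at no more than 1.23 in controls. Lta was at 14.5 to 18.3 in ICI-myocarditis and reached the filter only there. Its profile depends on the pseudocount, so nothing is read from this likeness. The median of this difference over all genes was 1.11 for Ms4a4d, the lowest of the 7, and 3.18 for Ms4a4b, the highest.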

How the data were processed

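Bulk total RNA of 4 control and 3 ICI-myocarditis ventricles was sequenced from stranded libraries, per the labels. Reads were aligned with STAR 2.7.3 to GRCm38 (mm10), per the submitters' processing notes. The counter, annotation and use of strand are not given in the sources used here. The deposited library columns are a normalized signal made by the authors, gene counts over a size factor of each library, as 100% of values are whole multiples of 1 step within 0.01. In control 1 that step is 1.0082, close to 1, so whole multiples say less there. Per the file headers the table also holds the authors' log2 fold change, its standard error, a score (the test statistic), and a p-value with its adjusted value.

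The main test was limma 3.58.1 (R 4.3.3, trend and robust) on log2(normalized count + 1), which understates changes of low genes, for genes that reached 10 normalized counts in 3 or more libraries. Benjamini-Hochberg adjustment ran over all genes tested, with a threshold of 0.05. edgeR 4.0.16 and DESeq2 1.42.0 on recovered reads, limma-voom with quality weights, other pseudocounts, filters and scaling, a replicate block and leaving out each library were alternatives. Tests were checked on simulated data. Of the gene names, 92.9% matched GENCODE M21, which gave coordinates, exon lengths and coding sequences, and 27 names had been turned into dates. At this depth the spread between animals limits all but the low genes, and the reads carry no molecular identifiers, so they are not separate molecules.

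The 7 genes and the lists were chosen with earlier results of these data known. Named are all 7, every MS4A relative and partner gene, Ctla4 and Pdcd1, the 2 members of each marker list highest per kilobase, and the 2 nearest profiles of each gene, leaving out predicted genes there. Other genes of the marker lists, among them Klre1, Klra8, Fcrla, Tnnt3 and Foxn1, were named after their values had been seen. Lists that were read cover pan-macrophage, resident macrophage, monocyte, T cell, NK cell, B cell, mast cell, neutrophil, cardiomyocyte, thymus, fat and skeletal muscle genes. Some older symbols were matched through RefSeq synonyms. Values of some listed genes are not reported here.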

Additional observations from a re-analysis of the deposited data

How the results depend on the processing

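Across 16 alternatives the 7 MS4A genes kept their direction, and all 7 passed the threshold in each but 1, without ICI-myocarditis 3, where 6 did and Ms4a4b missed it. Nothing is read from these counts of calls, because the 7 genes were selected on this contrast. Their log2 fold changes ranged from 3.24 to 5.22 for Ms4a4b, 2.97 to 4.19 for Ms4a4c, 1.06 to 1.62 for Ms4a4d, 2.06 to 2.71 for Ms4a6b, 2.44 to 2.92 for Ms4a6c, 2.78 to 3.30 for Ms4a6d and 3.10 to 3.64 for Ms4a7. The number of genes called over the whole table, 2397, was 4003 by limma-voom with quality weights, 3444 by DESeq2 and 2076 by edgeR, and 986 to 3340 when each library was left out in turn. The causes were not tested. Scaling by library total moved the median of all genes from -0.02 to 0.13 and gave 1981 calls. The count of MS4A relatives called was 3, and 2 with the filter of 50 normalized counts and without each ICI-myocarditis library in turn, where Ms4a8a was not tested because it fell under the filter. Control 4 shares its number with no ICI-myocarditis library, so the replicate block also takes it out of the contrast, and its fold changes equal those without control 4. With the replicate block 1780 genes were called, and 7 of the 7 MS4A genes, and among the relatives and partner genes the call of Tnfrsf18 was lost (adjusted p = 0.0551, and 0.0434 without control 4 and no block). Same-numbered libraries did not deviate together, with correlations of -0.271, -0.206 and -0.0784. These values give no sign that the numbers pair the animals, although 3 pairs are too few to exclude it. The list counts without control 2 and the members' counts per alternative were added after the data had been seen. Precision rests on 3 and 4 animals rather than on depth, except for genes such as Ms4a8a and Ms4a1 with few reads.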

Other observations

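Other cell types that the ventricle samples could hold were read once. Of 3 neutrophil genes tested 1 rose, and the median on the log2 scale was -0.20. Csf3r, the receptor for granulocyte growth factor, changed by 2.91 (SE 0.618, limma adjusted p = 0.0139), and S100a9, a granule protein, was at -0.62 (SE 0.774, limma adjusted p = 0.645). The summed neutrophil count was 49.4 to 217 in controls and 325 to 890 in ICI-myocarditis, of which Csf3r alone made up 282 to 820. Of 3 skeletal muscle genes tested, 1 rose and 1 fell, with a median of -0.09. Ckm, the muscle creatine kinase that heart also expresses, changed by -1.68 (SE 0.457, limma adjusted p = 0.0374), Tnnt3, a fast-muscle troponin, by 2.18 (SE 0.626, limma adjusted p = 0.0449), and Acta1 was at -0.09 (SE 0.420, limma adjusted p = 0.917).

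Thymus genes were near 0 in every library, with sums of 1.25 to 16.7 in controls and 4.09 to 7.64 in ICI-myocarditis, and Foxn1, the factor of thymic epithelium, at 0 throughout. Rag2 was at no more than 10, and Dntt at no more than 3.06. Fat genes summed to 8.07 to 159 in controls and 3.82 to 7.97 in ICI-myocarditis. Control 3 was the highest, with Cfd at 92.7 and Adipoq at 41.3.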
